A study of Mus musculus with 2 samples.

Results

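The cytotoxic granule genes described here are 8 genes of the killing machinery of lymphocytes, the granzymes Gzma, Gzmb, Gzmk and Gzmm, the pore former Prf1, the granule membrane protein gene Nkg7, the proteoglycan core gene Srgn and the protease gene Ctsw. They were chosen by name, and all 8 were present among the 31017 gene symbols of the deposited table. The study profiled spleen cells of mice aged 6 to 8 weeks with droplet-based 3-prime single-cell RNA sequencing, in which unique molecular identifiers (UMIs) count captured transcripts. The labels name 2 samples, a WAS sample, which the protocol ties to WAS-KO mice as a model of Wiskott-Aldrich syndrome, and a WT sample. The groups were read from the sample titles, because both samples carry the same mouse model characteristic. How many animals stand behind each sample, and which mutant allele they carry, is not stated in the labels. The deposited table holds both samples together, all 7524 barcodes are distinct and carry 1 common suffix, and no barcode could be tied to a sample. Neither the genotypes nor the level of Was in each sample could therefore be compared, and every value below is a sum over WAS and WT cells with no replicate behind it. Levels were instead compared between cell types gated on raw UMIs of lineage markers, with no granule gene among the markers.

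Cytotoxic lymphocytes store preformed killing proteins in secretory lysosomes and release them at the contact with a target cell. Perforin opens the target's membrane, and granzymes, a family of serine proteases, enter and cleave proteins that start cell death. Serglycin, the product of Srgn, binds granule contents through its sugar chains and is made by many blood cells. In mouse spleen, resting natural killer (NK) cells are known to hold granzyme transcripts before activation, while naive T cells acquire most of them after priming. The Wiskott-Aldrich syndrome protein acts on actin at the contact that killer cells form.

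In the mouse genome (build GRCm38, GENCODE annotation), Gzma lies on the minus strand at chr13:113093825-113100981 and Gzmk on the same strand at chr13:113171608-113225908, 70627 bases away. Gzmb lies apart from both at chr14:56258838-56262260 (minus strand). Gzmm (chr10:79689020-79695261, plus strand), Prf1 (chr10:61297833-61304680, plus strand) and Srgn (chr10:62493833-62527451, minus strand) share chromosome 10. Nkg7 lies at chr7:43437073-43438249 (plus strand) and Ctsw at chr19:5465043-5468507 (minus strand). RefSeq promoter windows of 300 bases on build GRCm38.p6, from 250 bases before the transcription start to 50 after it, matched 7 of the 8 genes, all but Ctsw. Those of Gzma (chr13:113100932-113101231), Gzmk (chr13:113180916-113181215) and Gzmb (chr14:56262285-56262584), all on the minus strand, are printed 5′ to 3′. They were picked because Gzma and Gzmk, neighbours on 1 chromosome, were highest in different cell types. Gzmb was added because it made up most granzyme UMIs of regulatory T cells. Capitals mark matches on either strand to the T-box core GTGTGA, the Runx core TGTGGT and the cyclic AMP response element core TGACGT, none of which overlapped another match.
Gzma: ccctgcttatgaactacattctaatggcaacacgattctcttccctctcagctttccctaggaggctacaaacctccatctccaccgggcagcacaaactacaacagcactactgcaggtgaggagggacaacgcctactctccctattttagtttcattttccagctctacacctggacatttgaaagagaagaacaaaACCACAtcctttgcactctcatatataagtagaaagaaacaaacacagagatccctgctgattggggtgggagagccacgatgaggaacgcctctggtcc
Gzmk: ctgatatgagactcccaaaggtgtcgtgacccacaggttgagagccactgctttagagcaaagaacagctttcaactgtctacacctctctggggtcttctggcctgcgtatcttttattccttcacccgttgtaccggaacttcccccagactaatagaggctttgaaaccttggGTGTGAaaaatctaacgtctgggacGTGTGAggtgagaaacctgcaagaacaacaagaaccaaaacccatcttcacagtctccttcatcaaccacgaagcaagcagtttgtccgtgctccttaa
Gzmb: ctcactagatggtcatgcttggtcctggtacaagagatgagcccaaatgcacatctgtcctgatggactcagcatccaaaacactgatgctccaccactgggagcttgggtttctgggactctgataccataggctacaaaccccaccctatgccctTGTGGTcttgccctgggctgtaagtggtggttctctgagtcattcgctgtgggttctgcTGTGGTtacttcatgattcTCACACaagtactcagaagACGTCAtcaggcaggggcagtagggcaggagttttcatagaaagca

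The Gzma window held 1 Runx core, 50 bases before the start on the opposite strand, and neither of the other motifs. The Gzmk window held 2 T-box cores, 74 and 49 bases before the start. The Gzmb window held 1 T-box core 15 bases before the start on the opposite strand, Runx cores 93 and 34 bases before the start, and 1 cyclic AMP response element core 4 bases after it on the opposite strand. Of all 32851 windows in the table, 14.5% held the T-box core, 16.8% the Runx core and 7.51% the cyclic AMP response element core. Among the 7 genes with a window, 4 held the T-box core, 6 the Runx core and 3 the cyclic AMP response element core in at least 1 of their windows, against 16.4%, 18.9% and 8.37% of all genes. A match of 6 letters is a description of these windows only.

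Of the 7524 barcodes, 6588 had at least 200 detected genes and at most 10% mitochondrial UMIs and were kept, with a median of 5339 UMIs each (range 500 to 129686). Gates placed 5302 cells in 1 of 18 classes. Median depth was 4505.5 UMIs in 300 NK cells, 7016 in 93 innate-like T cells, 8296 in 312 CD8 T cells, 6552 in 452 CD4 T cells and 5156 in 2855 B cells. NK cells carried Ncr1 and Klrb1c with at most 2 Cd3 UMIs. Independent markers followed the NK gate, with Klre1 at 1349 and Eomes at 319 counts per 1000000 UMIs of the gate (CPM) and T cell receptor Trac at 15.4 CPM, against 41.4, 87.4 and 649 CPM in CD8 T cells. Innate-like T cells were Cd3-positive cells with Trdc (38 gamma delta cells) or with Zbtb16 or Klrb1c (55 cells). Intervals are 95% intervals for counting error only, exact Poisson for CPM, Clopper-Pearson for shares of cells and exact conditional binomial for ratios.

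Gzma, which encodes a tryptase that acts in the killing of target cells, was concentrated in NK cells. Its summed level was 12364 CPM in NK cells (12187 to 12544), 1931 in innate-like T cells (1833 to 2033), 408 in CD8 T cells (385 to 433), 12.0 in CD4 T cells (8.45 to 16.5) and 8.96 in B cells (7.61 to 10.5). NK cells, 300 of the 6588 kept cells, held 76.2% of all Gzma UMIs. A Gzma UMI was found in 97.3% of NK cells, 97.0% after each cell was thinned to 1000 UMIs, with a median of 56 UMIs a cell and a maximum of 273. The share was 32.3% in innate-like T cells (20.4% thinned), 17.6% in CD8 T cells (7.37% thinned), 5.53% in CD4 T cells (1.33% thinned) and 5.29% in B cells (0.947% thinned). The CD4 share thus stood near that of B cells, which are not known to express the gene. In CD4 T cells 1 cell held 13 of the 37 Gzma UMIs, while the maximum in a B cell was 2. Whether the CD4 UMIs are background was not tested. In CD8 T cells 5 cells held 55.8% of the Gzma UMIs and 1 of them held 314, so the summed level there rests on few cells.

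Outside the T and NK gates, Gzma ran between 0 and 21.1 CPM in the 9 classes of at least 20 cells. The upper end was plasma cells, where 41.1% of cells had a UMI at a median depth of 29614.5 UMIs, but 1.79% did after thinning. No B cell had more than 2 Gzma UMIs.

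**Figure D1:**
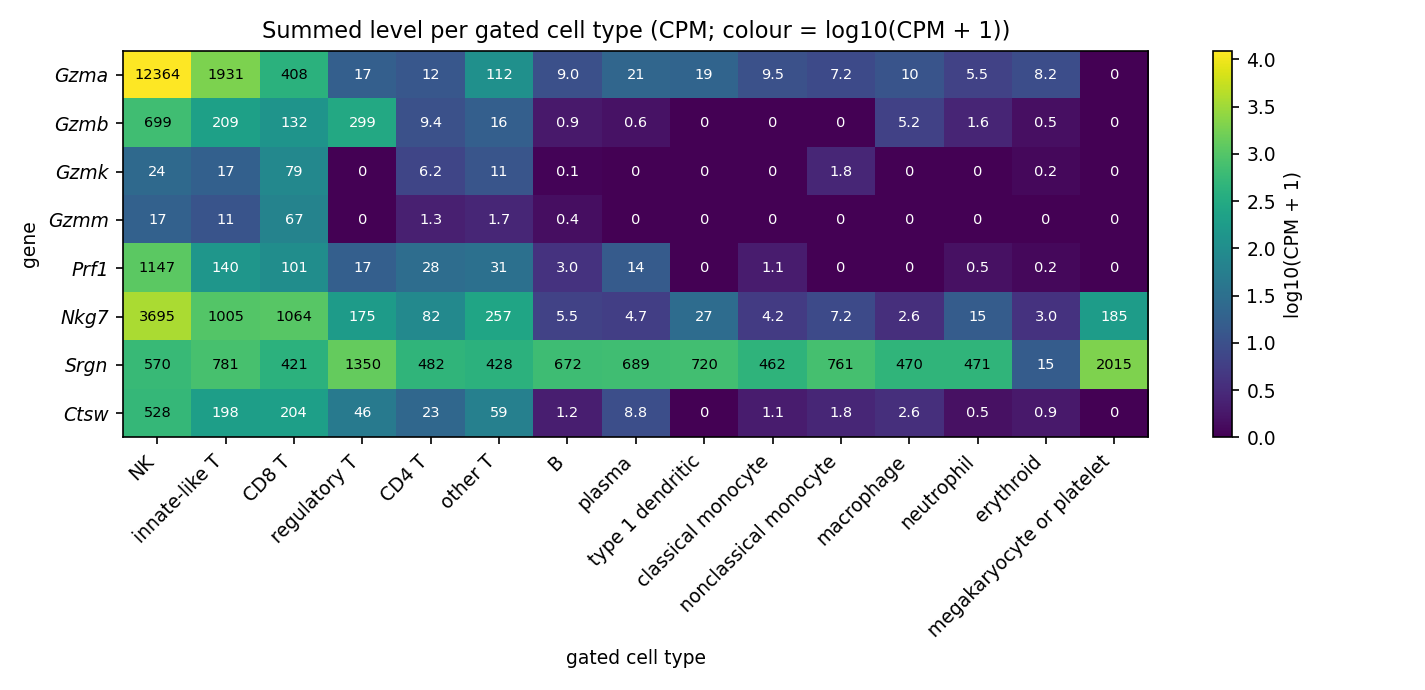
Heat map of the 8 genes (rows) in the 15 gated classes of at least 20 cells (columns); the printed number is the summed level in CPM and the colour its value as log10(CPM + 1). Gzma, Gzmb, Prf1, Nkg7 and Ctsw stand highest in NK cells, Gzmk (78.9 CPM) and Gzmm (67.4 CPM) in CD8 T cells, and Srgn is spread over nearly every class.

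Gzmb encodes granzyme B, a protease that cleaves after aspartate and activates caspases. It reached 699 CPM in NK cells (657 to 743), 299 in regulatory T cells (234 to 377), 209 in innate-like T cells (177 to 244), 132 in CD8 T cells (119 to 146), 9.40 in CD4 T cells (6.30 to 13.5) and 0.919 in B cells (0.525 to 1.49). The intervals of regulatory and innate-like T cells overlap and those of the other neighbours down to CD8 T cells do not. They cover counting error only, not spread between cells. In 5 cells each lay 91.7% of the Gzmb UMIs of regulatory, 69.6% of innate-like and 47.4% of CD8 T cells. The order of these 3 gates therefore rests on few cells. A UMI was seen in 81.7% of NK cells (45.5% thinned), with a median of 3 a cell, and in 16.7% of CD8 T cells (7.69% thinned), 2.88% of CD4 T cells (0.885% thinned) and 0.560% of B cells (0 thinned).

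Gzmk and Gzmm ordered the cell types differently. Gzmk, a tryptase gene known from memory-type CD8 T cells, had 78.9 CPM in CD8 T cells (68.8 to 90.0), 24.0 in NK cells (16.8 to 33.3), 17.2 in innate-like T cells (9.14 to 29.3), 6.16 in CD4 T cells (3.71 to 9.62) and 0.115 in B cells, where 2 UMIs were found. Gzmm, whose product prefers to cleave after methionine and related residues, had 67.4 CPM in CD8 T cells (58.2 to 77.8), 17.4 in NK cells (11.3 to 25.4), 10.6 in innate-like T cells (4.56 to 20.8), 1.30 in CD4 T cells and 0.402 in B cells. CD8 T cells held 67.8% of all Gzmk UMIs and 70.0% of all Gzmm UMIs. NK and innate-like T cells had overlapping intervals for both genes. Gzmk was seen in 53 CD8 T cells (17.0%, 5.45% thinned) and 17 NK cells (5.67%, 2.01% thinned), Gzmm in 60 CD8 T cells (19.2%, 3.85% thinned) and 19 NK cells (6.33%, 1.34% thinned), against 2 and 7 of 2855 B cells.

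Prf1 encodes perforin. Its level was 1147 CPM in NK cells (1093 to 1202), 140 in innate-like T cells (115 to 169), 101 in CD8 T cells (89.6 to 113), 27.9 in CD4 T cells (22.3 to 34.4) and 2.99 in B cells (2.23 to 3.92). A UMI was found in 96.7% of NK cells (64.5% thinned), 33.3% of innate-like T cells (5.38% thinned), 46.8% of CD8 T cells (8.33% thinned), 15.5% of CD4 T cells (1.99% thinned) and 1.75% of B cells (0.245% thinned). Prf1 was thus spread over more CD8 T cells than any granzyme was, with at most 8 UMIs in 1 cell and 12.0% of its UMIs in the top 5 cells. In innate-like T cells 51.9% of the Prf1 UMIs lay in 5 cells. After thinning their level was 53.8 CPM, below the 106 CPM of CD8 T cells. Plasma cells had 14.1 CPM (9.01 to 20.9), with 24 UMIs of which 66.7% lay in 5 cells.

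Nkg7, whose product sits in the granule membrane and takes part in degranulation, had 3695 CPM in NK cells (3598 to 3793), 1005 in innate-like T cells (934 to 1078), 1064 in CD8 T cells (1026 to 1103), 175 in regulatory T cells (126 to 236), 82.0 in CD4 T cells (72.2 to 92.8) and 5.51 in B cells (4.46 to 6.73). CD8 and innate-like T cells had overlapping intervals. It was found in 99.7% of NK cells, 92.3% of CD8 T cells (53.2% thinned), 12.6% of CD4 T cells (4.42% thinned) and 3.26% of B cells (0.351% thinned), so nearly every CD8 T cell carried Nkg7 while most carried no granzyme. The 185 CPM of the megakaryocyte or platelet gate came from 11 UMIs in 1 of 24 cells.

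Ctsw encodes cathepsin W, a cysteine protease of the papain family found mainly in cytotoxic lymphocytes. It had 528 CPM in NK cells (491 to 566), 198 in innate-like T cells (168 to 232), 204 in CD8 T cells (187 to 221), 22.7 in CD4 T cells (17.7 to 28.7) and 1.21 in B cells (0.746 to 1.84). The share of cells with a UMI was 90.0% in NK cells (42.5% thinned), 52.7% in innate-like T cells (18.3% thinned), 71.2% in CD8 T cells (18.3% thinned) and 0.736% in B cells (0.175% thinned). The raw share was thus lower in innate-like than in CD8 T cells, and after thinning both stood at 18.3%.

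Srgn was the exception among the 8 genes. Its level was 570 CPM in NK cells (533 to 610), 781 in innate-like T cells (720 to 847), 421 in CD8 T cells (397 to 445), 1350 in regulatory T cells (1208 to 1506), 482 in CD4 T cells (458 to 507) and 672 in B cells (660 to 684). B cells held 49.1% of all Srgn UMIs, and 94.3% of them had at least 1. Among gates of at least 20 cells, the gate at the top was megakaryocytes or platelets at 2015 CPM (1671 to 2410, 24 cells), and erythroid cells were at the bottom at 14.5 CPM (11.2 to 18.6). Regulatory T cells had 49.5% of their Srgn UMIs in 5 cells.

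**Figure D2:**
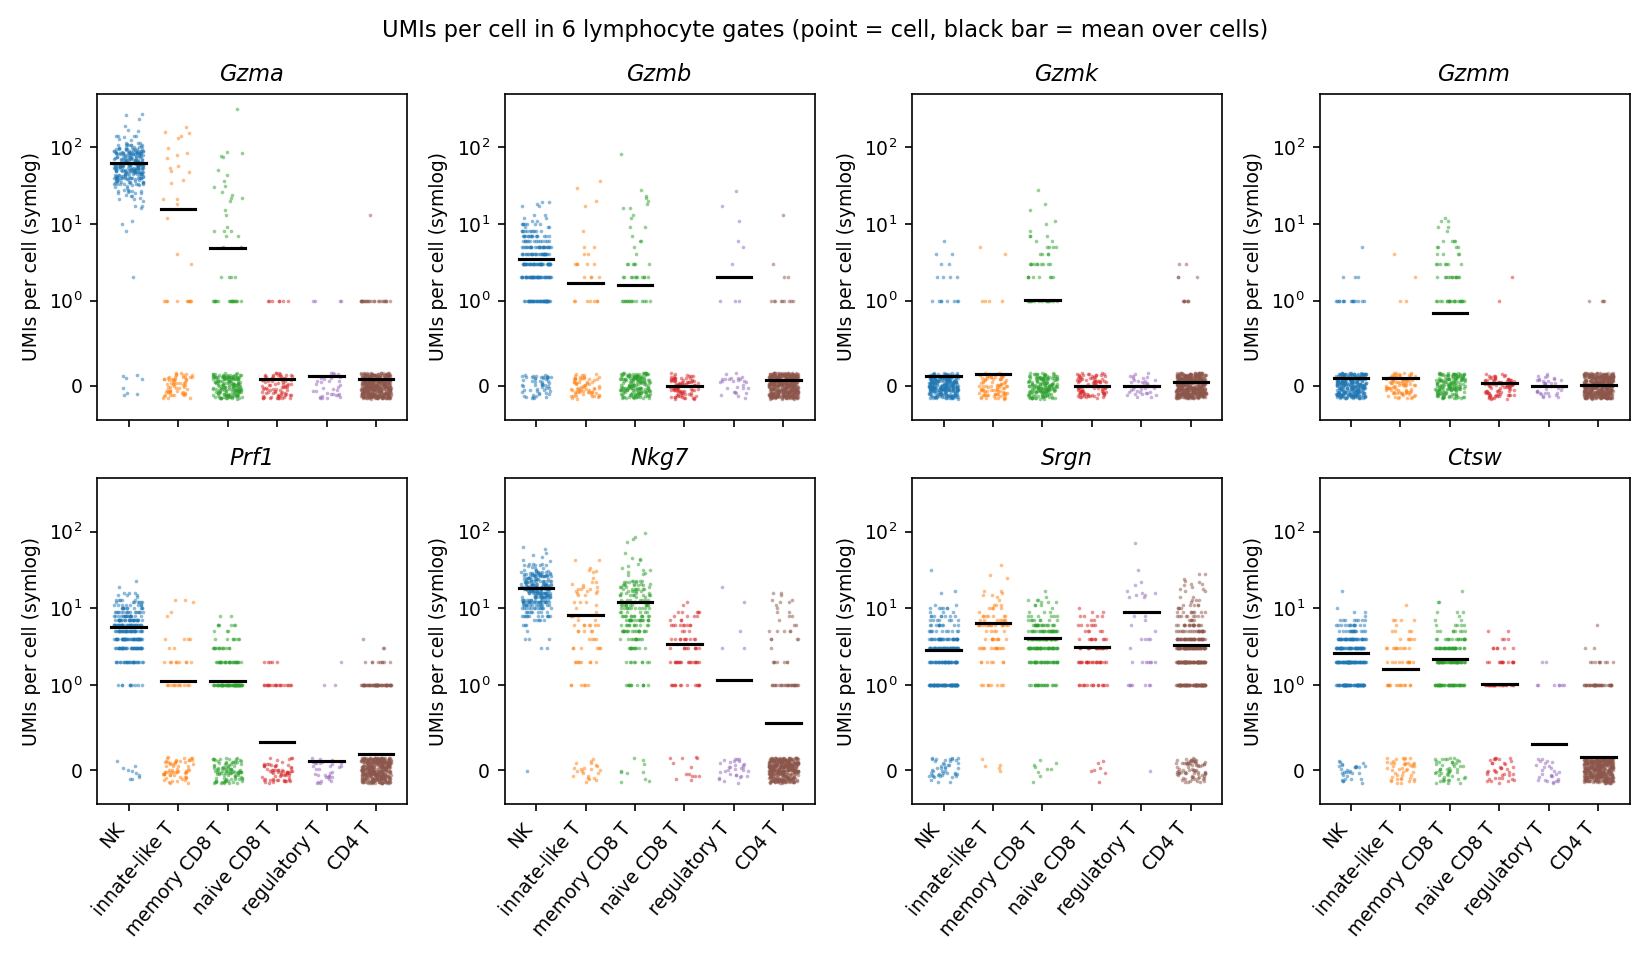
UMIs per cell of each gene (y axis, linear below 1 and logarithmic above) in NK, innate-like T, memory-marker CD8 T, naive-marker CD8 T, regulatory T and CD4 T cells; each dot is 1 cell and the bar is the mean. Gzma fills NK cells with a median of 56 UMIs, while in CD8 T cells most dots lie at 0 and a few cells reach up to 314.

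The first comparison asked how NK cells and CD8 T cells differ in the summed transcript levels of the granule genes. At least 2-fold higher in NK cells were 5 of the 8 genes, Gzma, Prf1, Gzmb, Nkg7 and Ctsw, against 10.4% of the 5308 genes with at least 100 UMIs over both gates. At least 2-fold lower were 2, Gzmk and Gzmm, against 5.14% of those genes. Gzma was 30.3-fold higher (log2 ratio 4.92, 4.83 to 5.01), and 33 of the 5308 genes had a higher ratio. Prf1 was 11.4-fold higher (log2 3.51, 3.32 to 3.69), Gzmb 5.31-fold (log2 2.41, 2.24 to 2.58), Nkg7 3.47-fold (log2 1.80, 1.73 to 1.86) and Ctsw 2.59-fold (log2 1.37, 1.22 to 1.53). The log2 ratio was -1.71 for Gzmk (-2.26 to -1.20) and -1.96 for Gzmm (-2.61 to -1.36). Srgn stood between them at 0.44 (0.31 to 0.57). With the 5 cells richest in each gene left out of each gate, an alternative chosen after seeing the data, Gzma in CD8 T cells was 187 CPM and its log2 ratio 6.01. With median-of-ratios size factors in place of totals the median of all genes moved by -0.27 and the calls that were higher made up 46.2% of calls, against 66.9% with totals.

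B cells served as the cell type that should lack the granule genes other than Srgn. Of the 6 granule genes with at least 100 UMIs over both gates, 5 were at least 2-fold higher in NK cells than in B cells. Srgn was not (log2 -0.24), and 11.3% of 8891 genes with as many UMIs were. With Gzmk and Gzmm, which lie under that minimum, 7 of 8 were. The log2 ratio was 10.43 for Gzma, 9.57 for Gzmb, 9.39 for Nkg7, 8.77 for Ctsw and 8.59 for Prf1. Gzmk had 36 UMIs in NK cells and 2 in B cells, and Gzmm 26 UMIs in NK cells and 7 in B cells (log2 5.43, 4.19 to 6.88), so both were detected in NK cells above the B cell level in spite of their low counts. For this comparison the size factors moved the median of all genes by -0.41, and the higher share of calls was 26.7%, against 47.7% with totals.

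Innate-like T cells, which carry a T cell receptor and NK-type receptors or factors, had 1 of 8 genes at least 2-fold higher than CD8 T cells, against 2.51% of 4505 genes, and 2 at least 2-fold lower, against 0.599%. The higher gene was Gzma, 4.73-fold (log2 2.24, 2.13 to 2.36). The log2 ratio was 0.89 for Srgn, 0.66 for Gzmb and 0.47 for Prf1, which was -0.98 after thinning, and it was -0.08 for Nkg7 and -0.04 for Ctsw, whose intervals include 0. The lower genes were Gzmk (log2 -2.20, -3.13 to -1.40) and Gzmm (log2 -2.68, -3.91 to -1.67), the same pair that was lower in NK cells, with 13 and 8 UMIs in innate-like T cells against 221 and 189 in CD8 T cells. Here the size factors moved the median of all genes by -0.30, and the higher share of calls was 41.7%, against 80.7% with totals.

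The high Gzma of innate-like T cells came mainly from cells that also carried the NK receptor transcript Ncr1, a split made after seeing the data. Those 14 of 93 cells held 1132 of the 1463 Gzma UMIs and had 7475 CPM, against 546 CPM (489 to 608) in the 79 cells without an Ncr1 UMI. Prf1 was 508 against 47.8 CPM, Gzmb 515 against 132, and Nkg7 2304 against 680. The 14 cells also had more Klre1 (832 against 80.8 CPM), less Cd3e (231 against 642 CPM), Trac at 350 against 432 CPM, and a median depth of 10709.5 against 6872 UMIs. Scrublet called 3 of the 93 innate-like T cells doublets, and with called doublets left out Gzma in innate-like T cells was 1638 CPM; whether the 14 cells are single cells was not tested further. Without them the log2 ratio to CD8 T cells was 0.42 for Gzma, 0.00 for Gzmb, -1.08 for Prf1 and -0.65 for Nkg7, and 0 of the 8 genes were at least 2-fold higher. Between the 2 kinds of innate-like T cells, Gzma was 2471 CPM in those with Zbtb16 or Klrb1c and 1102 CPM in gamma delta cells, but 13 of the 14 cells lay in the first kind. Without them Gzma was 415 CPM (347 to 492) in the Zbtb16 or Klrb1c cells and 691 CPM (598 to 794) in gamma delta cells. The direction turned, but 1 gamma delta cell held 156 of the 199 UMIs behind the 691 CPM, so the turn rests on 1 cell. Prf1, 181 and 77.0 CPM with all cells, was 59.7 CPM (35.9 to 93.2) and 34.7 CPM (16.7 to 63.9) without the 14 cells, with overlapping intervals. Ctsw stayed higher in the Zbtb16 or Klrb1c cells, 277 against 77.0 CPM with all cells and 226 against 72.9 CPM without the 14. Gzmb was 179 against 254 CPM with all cells and 66.0 against 205 CPM without them. With all cells, 5 cells held 70.7% of the Gzmb UMIs in the Zbtb16 or Klrb1c cells and 93.4% in gamma delta cells. The Gzmb order thus rests on few cells. In gamma delta cells 99.1% of all Gzma UMIs lay in 5 cells.

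**Figure D3:**
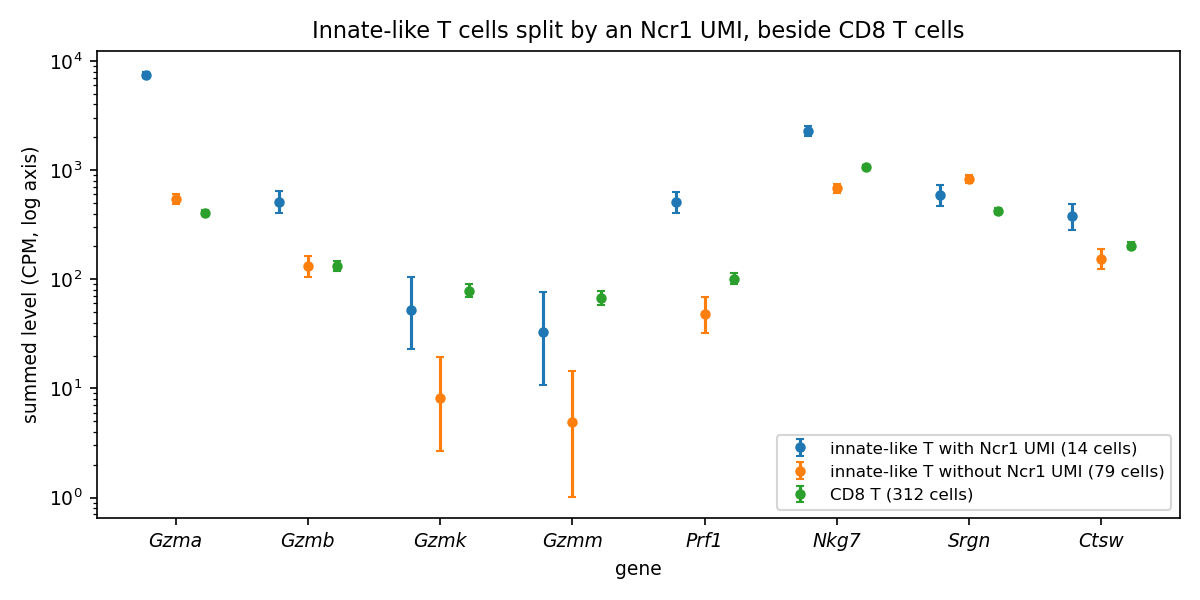
Summed level in CPM (logarithmic axis) of the 8 genes in innate-like T cells with an Ncr1 UMI (14 cells), innate-like T cells without one (79 cells) and CD8 T cells (312 cells); bars are 95% counting intervals. Gzma, Gzmb, Prf1 and Nkg7 are higher in the 14 cells than in the 79, and Gzmk and Gzmm are higher in CD8 T cells than in the 79, while their intervals in the 14 cells overlap those of CD8 T cells.

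Between the conventional T cell lineages, 7 of 8 genes were at least 2-fold higher in CD8 than in CD4 T cells, against 2.35% of 5995 genes. Gzmm had the highest ratio (log2 5.70, 4.32 to 7.59), with 189 UMIs in CD8 and 4 in CD4 T cells, and 3 genes stood above it. Gzma followed at 5.09 (4.62 to 5.60), measured against a CD4 level near that of B cells. The log2 ratio was 3.81 for Gzmb, 3.70 for Nkg7, 3.68 for Gzmk, 3.17 for Ctsw and 1.86 for Prf1. Srgn alone did not differ by 2-fold (-0.20, -0.31 to -0.08).

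Within CD8 T cells, 218 cells with Il2rb or Cxcr3, markers of memory cells, were set against 89 cells with Ccr7 or Lef1 and neither of the first pair, as naive cells have. The memory gate did not exclude Ccr7 or Lef1, so it may hold cells with naive markers. The memory gate had 5734 and the naive gate 56.5 CPM of Ccl5, a chemokine of memory CD8 T cells, and Cd44 was 66.6 against 11.6 CPM. At least 2-fold higher in memory-marker cells were 6 of 8 genes, against 4.04% of 3636 genes. Gzma had 1050 UMIs in memory-marker and 7 in naive-marker cells (log2 5.63, 4.58 to 6.95), and Gzmm 186 and 3 (log2 4.36, 2.79 to 6.65). Gzmb had 351 UMIs in memory-marker cells and 0 in naive-marker cells, at least 38.6-fold higher, and Gzmk 220 in memory-marker and 0 in naive-marker cells, at least 24.2-fold higher, both set against a floor of 3 UMIs over the naive gate. With the counting error of the memory-marker gate these bounds are 31.3-fold and 19.5-fold. For either gene 0 of 89 naive-marker cells with a UMI leaves a Clopper-Pearson upper limit of 4.06%, and the limit of 3 counts gives 3.37%.

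Prf1 and Nkg7 were already present in naive-marker CD8 T cells. Nkg7 had 1260 CPM in memory-marker and 444 CPM in naive-marker cells (log2 1.51, 1.33 to 1.68), with a UMI in 95.4% and 85.4% of cells (63.8% and 27.0% thinned). Prf1 had 119 CPM in memory-marker and 42.0 CPM in naive-marker cells (2.84-fold, 1.93 to 4.32), with a UMI in 55.0% and 27.0% of cells (9.63% and 3.37% thinned). Ctsw was 227 in memory-marker and 135 CPM in naive-marker cells (log2 0.75), and Srgn 427 in memory-marker and 404 CPM in naive-marker cells (log2 0.08, interval including 0). These 4 genes were thus detected in naive-marker cells, where no granzyme exceeded 10.1 CPM.

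**Figure D4:**
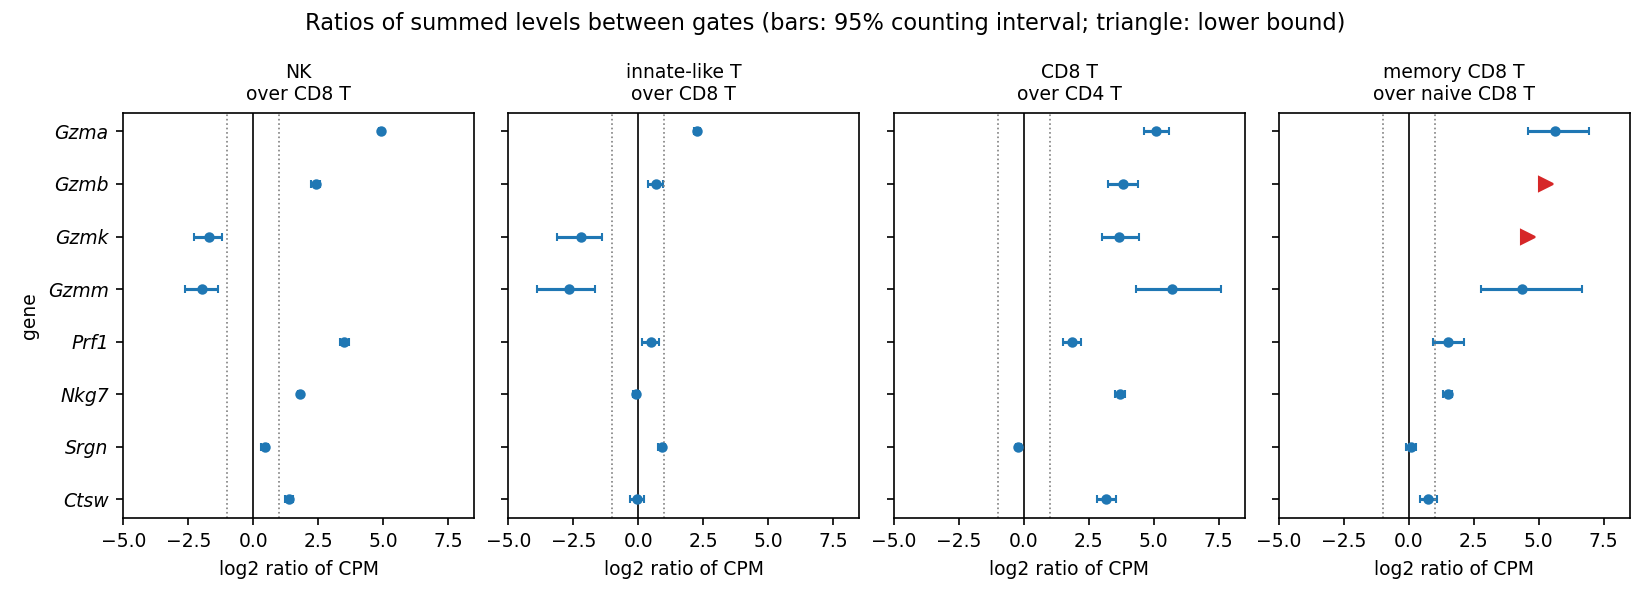
Log2 ratios of summed levels for 4 comparisons, with 95% counting intervals; dotted lines mark 2-fold and triangles are lower bounds where the second gate had 0 UMIs. Gzmk and Gzmm lie left of 0 in the first 2 panels and right of it in the last 2, and Srgn stays within 2-fold in all 4.

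NK cells mature from a Cd27-positive to an Itgam-positive stage, so 167 cells with Itgam and no Cd27 were compared with 29 cells with Cd27 and no Itgam. None of the 8 genes was at least 2-fold higher in Itgam cells, where 1.85% of 1625 genes were, and with size factors Prf1 was. Prf1 was 1344 in Itgam and 680 CPM in Cd27 cells (log2 0.98, 0.71 to 1.26), just under 2-fold. Gzmb was 789 in Itgam and 501 CPM in Cd27 cells (log2 0.66), Gzma 14032 and 9381 CPM (log2 0.58), Nkg7 3933 and 2873 CPM (log2 0.45), and Ctsw 558 and 560 CPM. In Cd27 cells 5 of the 29 cells held 48.2% of Gzma and 53.3% of Gzmb UMIs, while 5 of the 167 Itgam cells held 8.08% and 12.0%. Gzmk had 20 UMIs in Itgam and 12 in Cd27 cells (log2 -1.35, -2.46 to -0.19), and Gzmm 10 and 7 UMIs (log2 -1.58, interval including 0). Both lie under the minimum of 100 UMIs, above which 0.492% of genes were at least 2-fold lower. The size factors moved the median of all genes by 0.15, and the higher share of calls was 90.5%, against 78.9% with totals.

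Regulatory T cells (36 cells with Foxp3) had higher summed levels of Gzmb, Srgn and Nkg7 than CD4 T cells. The log2 ratio to CD4 T cells was 4.99 for Gzmb (4.35 to 5.67), from 72 UMIs in regulatory and 29 in CD4 T cells. None of the other 4293 genes with at least 100 UMIs over both gates had a higher one. Gzmb reached that minimum only through its 72 UMIs in regulatory T cells, and genes with fewer UMIs were not ranked. Its place among these genes therefore depends on the minimum. Those 72 UMIs lay in 9 of the 36 cells, 91.7% of them in 5 cells, so the ratio rests on few cells. NK markers Ncr1, Klre1 and Eomes had 0 UMIs in this gate. The monocyte gene Lyz2 had 465 CPM, from 112 UMIs in 8 cells; its part in the result was not tested. Srgn was higher by 1.49 and Nkg7 by 1.09 on the log2 scale, where 3.73% of 4294 genes were at least 2-fold higher. All 42 Nkg7 UMIs lay in 5 of the 36 cells. The share of cells with an Nkg7 UMI was 13.9%, against 12.6% in CD4 T cells. Ctsw was higher by 1.01 on the log2 scale, from 11 UMIs in regulatory T cells, with an interval including 0. Gzma was 16.6 in regulatory and 12.0 CPM in CD4 T cells, Prf1 16.6 and 27.9 CPM, and Gzmk and Gzmm had 0 UMIs in regulatory T cells.

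The granzymes differed in mix as well as in amount. Of all UMIs of the 4 granzymes, Gzma made up 94.3% in NK cells, 89.1% in innate-like T cells, 58.1% in memory-marker CD8 T cells, 5.26% in regulatory T cells and 41.6% in CD4 T cells. Gzmb made up 5.34% in NK cells, 9.62% in innate-like T cells, 19.4% in memory-marker CD8 T cells, 94.7% in regulatory T cells and 32.6% in CD4 T cells. Without the 14 cells with an Ncr1 UMI, innate-like T cells had 79.0% Gzma and 19.1% Gzmb (419 UMIs). Gzmk and Gzmm together stayed below 1% in NK cells (0.183% and 0.132%) and were 12.2% and 10.3% in memory-marker CD8 T cells. The shares rest on 19625 UMIs in NK cells, 1642 in innate-like T cells, 1807 in memory-marker CD8 T cells, 76 in regulatory T cells and 89 in CD4 T cells.

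**Figure D5:**
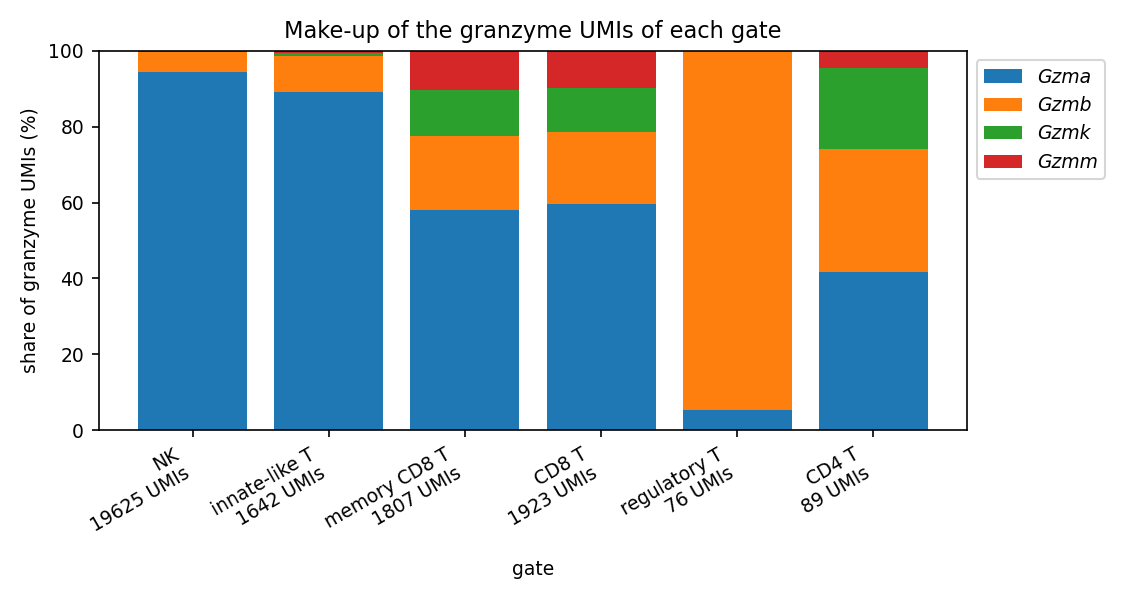
Share of each granzyme among the UMIs of the 4 granzymes, in percent, by gate. Gzma takes 94.3% in NK cells and Gzmb 94.7% in regulatory T cells, while CD8 T cells show all 4.

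The mix also differed within single cells. Among 300 NK cells, 227 had UMIs of exactly 2 granzymes, 44 of 1, 25 of 3, 0 of all 4 and 4 of none. Among 312 CD8 T cells, 192 had none, 64 had 1, 26 had 2, 16 had 3 and 14 had all 4. All granzyme-positive regulatory T cells, 13 of 36, had exactly 1. These were 9 cells with Gzmb and 4 cells with a single Gzma UMI each. Gzmb and Gzmk met in the same CD8 T cells, in 36 of the 52 cells with Gzmb and 53 cells with Gzmk. Gzmk was thus found in 69.2% of CD8 T cells with Gzmb and 6.54% of those without it, although the median depth was 6722.5 UMIs with Gzmb and 8475 without. Gzma met Gzmb in 29 of 55 Gzma-positive CD8 T cells. Gzmm went with Ctsw, found in 93.3% of Gzmm-positive and 65.9% of Gzmm-negative CD8 T cells, but the cells with Gzmm were deeper (median 10529 against 8019 UMIs), and the part of depth was not tested. In NK cells Gzmk and Gzmm met in 1 cell, out of 17 and 19.

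The relation of perforin and Nkg7 to Gzma also differed between NK and CD8 T cells. For each Gzma UMI there were 0.0927 Prf1 UMIs in NK cells and 0.247 in CD8 T cells. Nkg7 had 0.299 UMIs for each Gzma UMI in NK cells and 2.61 in CD8 T cells. In CD8 T cells 5 cells held 55.8% of the Gzma UMIs, so both CD8 ratios depend on few Gzma-rich cells.

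The other genes of the pathway were taken from lists by role, and those with at least 100 UMIs over both gates are called measured. In NK over CD8 T cells the median log2 ratio of all 5308 genes was 0.28, and 10.4% of them were at least 2-fold higher. Of the 6 other granzymes (Gzmc, Gzmd, Gzme, Gzmf, Gzmg and Gzmn), none reached 100 UMIs; Gzmc had 10 and Gzmf 1 UMI in all kept cells and the other 4 had 0. Of 8 measured granule processing and cargo genes, 3 were at least 2-fold higher in NK cells, with a list median of 0.87. They were Ctsd (log2 1.58), a lysosomal aspartic protease, Ctsc (1.22), the dipeptidase that activates progranzymes, and Cst7 (1.18), an inhibitor of Ctsc. The lysosomal membrane gene Lamp1 had 0.06.

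Of 12 measured exocytosis genes, 3 were at least 2-fold higher in NK cells and none lower, with a median of 0.59. These were Sytl3 (3.92) and Sytl2 (2.53), which encode synaptotagmin-like partners of Rab27, and the membrane fusion gene Snap23 (1.25). Rab27a, the granule-docking GTPase, had 0.89, and Lyst, the gene mutated in Chediak-Higashi syndrome, had -0.97. Both measured granzyme inhibitor genes were higher, Serpinb9 (3.61), which inhibits granzyme B, and Serpinb6b (2.66). Serpinb9b, under the minimum, had 72 UMIs in NK cells and 0 in CD8 T cells.

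Of 7 measured death ligands and effector cytokines, 6 were higher in NK cells, Ccl3 (4.66), Ccl4 (3.29), Xcl1 (3.16), Ifng (3.05), Fasl (3.00) and Ccl5 (2.10), and Ltb was lower (-2.94). Of 13 transcription factors, 7 were higher, Zeb2 (3.87), Prdm1 (3.83), Id2 (2.41), Tbx21 (2.33), Runx1 (1.95), Eomes (1.87) and Stat4 (1.23), and 2 were lower, Id3 (-3.66) and Tcf7 (-2.46). Tbx21 and Eomes encode the T-box factors of cytotoxic lymphocytes. Runx3, a further known regulator of cytotoxic lymphocytes, had 0.43.

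In CD8 over CD4 T cells (median of all genes -0.05), 1 of 8 processing genes, 0 of 11 exocytosis genes, 2 of 2 inhibitors, 2 of 4 ligands and cytokines and 4 of 12 transcription factors were at least 2-fold higher, against 2.35% of all genes. In memory-marker over naive-marker CD8 T cells (median 0.05), these were 2 of 7, 0 of 6, 2 of 2, 2 of 3 and 4 of 11, against 4.04% of all genes, the last being Zeb2 (3.54), Tbx21 (3.00), Eomes (1.70) and Id2 (1.18). Both inhibitors, Serpinb9 and Serpinb6b, were thus at least 2-fold higher in the same direction as the granzymes in both comparisons (1.53 and 1.91 in CD8 over CD4, 2.77 and 2.46 in memory over naive markers).

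Across the 15 gates of at least 20 cells, the genes whose log2(CPM + 1) pattern was most like each granule gene were found by Pearson's r over 9910 genes. These values describe 15 points that share 1 sequencing table and carry no test. Gzma lay nearest to Klrc2 (0.950), Ncald (0.949) and Sytl3 (0.945), and Prf1 to Sytl3 (0.973), Ctsw (0.962) and Tbx21 (0.948). Gzmb lay nearest to Ppm1j (0.952), Sytl2 (0.948) and Rnf43 (0.947), and Ctsw to Crtam (0.963), Prf1 (0.962) and Sla2 (0.951). Gzmk lay nearest to Btbd11 (0.948), Apol7e (0.942) and Eomes (0.942), and Gzmm to Gzmk (0.942), Ifitm10 (0.903) and Samd3 (0.903). Nkg7 lay nearest to F2r (0.901), Dok2 (0.897) and Prkcq (0.897), and Srgn to Dnlz (0.957), Strap (0.950) and Tm9sf3 (0.948), with an r of -0.001 to Gzma.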

How the data were processed

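Single-cell 3-prime libraries of spleen cells from a WAS and a WT sample were run on a HiSeq4000 or Novaseq machine, per the labels' protocols. The deposited values are raw whole-number UMI counts per gene and barcode on the mm10-3.0.0 reference, per the labels' protocols; aligner and counting program: not given in the sources used here. Barcodes with at least 200 genes and at most 10% mitochondrial UMIs were kept. Gate thresholds were set after marker distributions were seen, and the genes and lists were chosen with earlier results of these data known. T cells needed at least 3 Cd3 UMIs, NK cells at least 2 Ncr1 and Klrb1c UMIs, B cells at least 6 Cd79a, Cd79b and Ms4a1 UMIs. CD8 T cells had a Cd8a or Cd8b1 UMI and no Cd4, CD4 T cells a Cd4 UMI and no Cd8 or Foxp3. Cells passing gates of more than 1 class, 373, were left out, and 913 passed none. Doublets were otherwise left in. Levels are summed UMIs per 1000000 UMIs of the gate (CPM). With 1 pooled table there is no replicate, so no test was run. The named genes are the 8 granule genes, the pathway lists, and the 3 most alike genes of each. Thinning drew 1000 UMIs a cell with a fixed seed, leaving out 1 NK, 2 other T and 3 B cells among the lymphocytes. Alternatives covered the filters, doublet removal, size factors, thinning, gate thresholds, UMI minimum, per-cell means and fold threshold. Ratios and intervals were tested on Poisson counts simulated from the NK and CD8 T totals. The intervals assume such counts, so the simulation could not test them for spread between cells. Python 3.11.15, NumPy 2.4.6, SciPy 1.17.1, pandas 2.3.3, scanpy 1.11.5 (Scrublet) and GENCODE vM21 were used.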

Additional observations from a re-analysis of the deposited data

Results flagged for a closer look

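Gzma UMIs were also found in barcodes that the comparisons do not use. The 936 barcodes removed by the filters held 224 Gzma UMIs, in 32 barcodes, or 105 CPM. Cells that passed gates of 2 or more classes held 2599 Gzma UMIs, in 91 of 373 cells; 1441 of them lay in 25 cells that passed both the NK and the B cell gate. Cells that passed no gate held 146 Gzma UMIs, of which 123 were in 3 of 913 cells. In each case the level exceeded that of B cells (8.96 CPM). The basophil or mast gate of 6 cells, too small for the comparisons, held 99 Gzmb UMIs, of which 98 were in 1 cell; Scrublet called 2 of the 6 cells doublets. The sources of these UMIs were not tested.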

How the results depend on the processing

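No paired analysis was possible because the barcodes are not mapped to samples. Of 76 counts of genes past the fold threshold under other settings, 70 stayed within 1.5 times of the reported count. These include the settings with a minimum of 20 UMIs and with none. There the reported count was carried over and could not move, so those settings say nothing about stability. The count higher in NK than in CD8 T cells was 3 at 4-fold, against 5. The count higher in innate-like than in CD8 T cells was 3 at 1.5-fold, 2 with a mitochondrial maximum of 5% and 0 without the cells with an Ncr1 UMI, against 1. The count higher in Itgam than in Cd27 NK cells was 2 at 1.5-fold and 1 with size factors, against 0. Of the recomputed ratios of single genes, 332 stayed within their interval and 83 moved out of it, and no ratio that was past 2-fold as reported changed sign. Ratios nearer to 0 did: Prf1 in innate-like over CD8 T cells, reported at 0.47, was -1.08 without the cells with an Ncr1 UMI, -0.98 after thinning and -0.31 without the 5 richest cells, and Gzmb, reported at 0.66, was -0.03 without the 5 richest cells. Of the recomputed levels, 268 stayed within their interval and 92 moved out of it. With a minimum of 20 UMIs or none, 10 of 12 shares of all genes at least 2-fold higher moved by more than 1.5 times, up to 20.9% for NK over B cells with no minimum, against 11.3%; for innate-like over CD8 T cells the share was 6.77% and 14.4%, against 2.51%. The 4-fold and 1.5-fold counts differ by construction; the cause of the others was not tested. Leaving out the 5 cells richest in each gene, and leaving out the cells with an Ncr1 UMI, were chosen after seeing the data. Scrublet called 137 of 6588 cells doublets (2.08%). Gzmk and Gzmm had 326 and 270 UMIs in all kept cells, and 3-prime counts do not allow levels of different genes to be compared.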
